A study of Rattus norvegicus and Homo sapiens with 12 samples.

Results

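The comparison described here is that of MSC-selected with parental DU145 cells, measured gene by gene in RNA. Its members were the 60107 human genes of the deposited count table, of which 14316 had enough counts to be tested, in 6 of the 12 libraries of the series (3 F0 and 3 F2). DU145 is an established human prostate cancer line of epithelial origin that does not depend on androgen. F0 DU145 were the parental cells, which had not been selected. F2 DU145 were the cells that were recovered after repeated culture for 72 h in medium conditioned by human mesenchymal stem cells (MSC CM), with recovery in complete medium between the rounds. The sample labels give 2 rounds and the description of the series gives 3. The populations share the line and the growth medium. The description speaks of biological replicates collected in triplicate but leaves open whether the 3 F2 samples went through selection separately, so n, SD and p describe the spread between samples of 1 line.

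MSCs of the bone marrow secrete cytokines that can act on tumor cells which reach the bone, and a culture that survives such factors can differ from its parent in which cells remain, in what each cell expresses, or in both. In bulk RNA, fewer cells of a type and less RNA per cell cannot be told apart. QuantSeq starts from the poly(A) tail and sequences 1 fragment from the 3′ end of a transcript, so a count follows the number of polyadenylated molecules and carries no information on splicing or protein. Levels below are counts scaled by TMM to a common library total (CPM), with libraries in the order of their replicate numbers, and changes are log2 fold changes of F2 over F0 from the quasi-likelihood fit of edgeR, whose p values were adjusted over the 14316 tested genes (Benjamini-Hochberg). A gene was called where the adjusted p was under 0.05.

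The F0 libraries held between 16029876 and 16479239 counts in genes and the F2 libraries between 15879480 and 16217918. The first principal component, with 62.69% of the variance of 8650 genes, put the F0 libraries at one end and the F2 libraries at the other. Reads outside annotated genes were 9.598 to 10.02% of uniquely placed reads in F0 and 11.33 to 11.94% in F2. The epithelial genes KRT8, KRT18, KRT19, KRT7 and EPCAM were expressed in both populations, while the prostate genes KLK2 and HOXB13 had 0 counts in all 6 libraries. Of 22 MSC markers, 7 had 0 counts in every library and 17 lay under 10 CPM in F0. These 17 summed to 10.86 to 12.17 CPM in F0 and 7.84 to 8.57 in F2. All 22 summed to 1572 to 1775 CPM in F0 and 1704 to 1812 in F2, most of it VIM at 1439 ± 87.9 and 1453 ± 54.5 CPM. NT5E, which these cells express, was at 158 ± 9.49 and 222 ± 10.3 CPM and was called higher. S100A4, FN1 and TAGLN were called lower, with changes of -0.66, -0.52 and -0.31. The part of these markers in the results was not tested. The 7 leukocyte markers summed to 5.75 to 6.61 CPM in F0 and 7.27 to 9.94 in F2, mostly CD68, and PTPRC was at 0.

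Selection in MSC CM was accompanied by many small differences and few large ones. Of the 14316 genes, 2599 were called (18.2%), 1358 higher (9.49%) and 1241 lower (8.67%) in F2. In 1951 of these (75.07%) the change was under 1.5-fold, in 409 it was between 1.5-fold and 2-fold, and in 239 it was at least 2-fold (1.67% of the tested genes, 118 or 0.824% higher and 121 or 0.845% lower). Only 25 called genes differed at least 4-fold, 9 higher and 16 lower. The middle 90% of all tested genes lay between log2 fold changes of -0.50 and 0.53. The F0 and F2 libraries did not overlap in 4867 tested genes (34%) and in 2532 of the 2599 called ones (97.42%). When counts were scaled by library size alone, 832 genes were called higher and 2805 lower, since the median of all genes then moved from -0.0025 to -0.092, and small changes below therefore depend on the scaling more than large ones do. Without F0 replicate 2 the number of called genes was 1670.

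Calls were more frequent in well-measured genes. Among genes with a mean over 100 CPM 32.7% were called, against 20.5% between 10 and 100 CPM, 11.2% between 1 and 10 CPM and 6.17% under 1 CPM. The share at 2-fold ran the other way at the lower end, with 6.07% under 1 CPM and 0.611% over 100 CPM. Only 43 genes at 2-fold had a mean of at least 10 CPM, and 64 had a mean under 1 CPM. The plot of change against level shows this funnel.

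**Figure D1:**
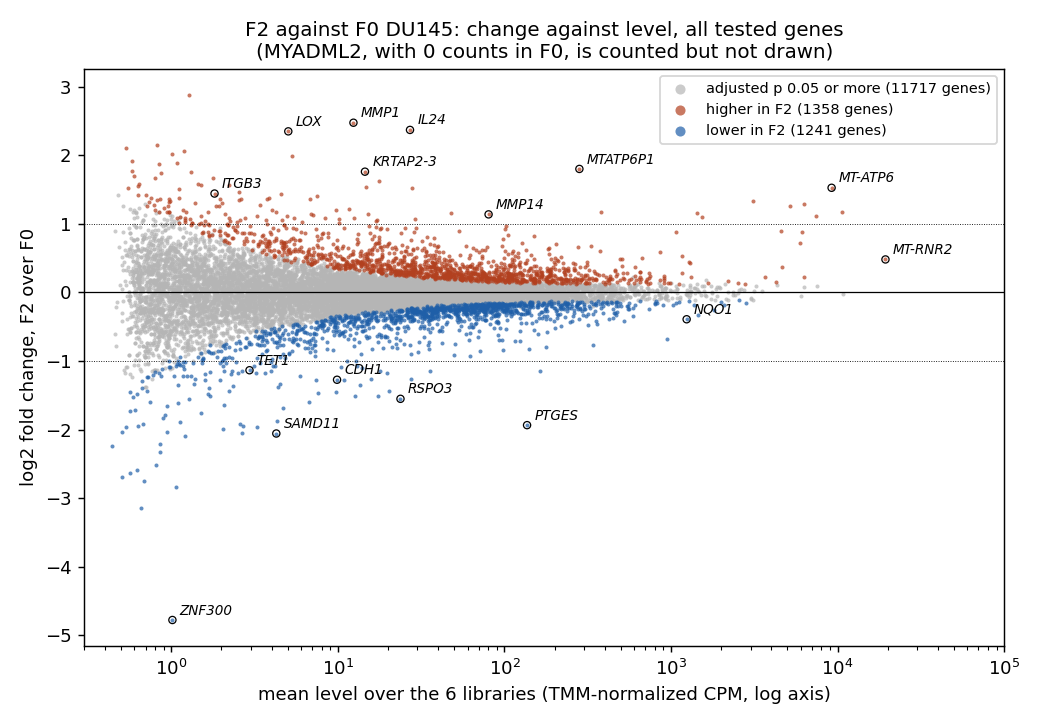
Log2 fold change of F2 over F0 DU145 (vertical axis) against the mean level over the 6 libraries in TMM-normalized CPM (horizontal log axis), 1 point for each tested gene. Red points are the 1358 genes called higher, blue points the 1241 called lower and grey points the rest, dotted lines mark 2-fold, and most of the genes beyond those lines lie under 10 CPM.

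Among genes with a mean of at least 10 CPM, the 12 largest rises held the collagenase gene MMP1, the cytokine gene IL24, the keratin-associated gene KRTAP2-3, the adhesion gene MPZL2, SPOCD1 and RAC2, together with 6 mitochondrial sequences. SPOCD1 (chromosome 1, 31790422 to 31816051 in GRCh38), which is known for a role in piRNA-directed DNA methylation, was at 14.3, 14.1 and 14.7 CPM in F0 and at 38.9, 47.3 and 38.1 in F2. All 3 F2 libraries lay far above F0, and the change was 1.53 (SE 0.092, adjusted p = 5.9e-10). RAC2 (chromosome 22, 37225261 to 37244448), a small GTPase best known from blood cells, was at 7.20, 7.33 and 6.57 CPM in F0 and at 16.7, 16.2 and 16.1 in F2, a change of 1.22 (SE 0.11, adjusted p = 1.7e-07). The leukocyte marker PTPRC was at 0 counts in the same libraries. MPZL2 was at 9.27, 8.12 and 8.70 CPM in F0 and at 29.4, 27.9 and 23.2 in F2.

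The 12 largest falls at this level were those of PTGES, RSPO3, CYP24A1, DHRS3, GSTM3, KCNK15, LONRF2, RHOV, VSIR, MIR1915HG, C15orf48 and ZNF428. C15orf48 (chromosome 15, 45430529 to 45448761) encodes a small mitochondrial protein that replaces a subunit of cytochrome c oxidase in inflamed cells. It was at 210, 224 and 246 CPM in F0 and at 100, 95.2 and 111 in F2, a change of -1.15 (SE 0.062, adjusted p = 1.2e-10). RHOV, which encodes an atypical small GTPase, was at 39.3, 42.9 and 34.1 CPM in F0 and at 17.9, 14.5 and 15.9 in F2. VSIR, which encodes the immune checkpoint protein VISTA, was at 21.7, 22.4 and 22.96 CPM in F0 and at 9.34, 10.8 and 7.91 in F2. The groups were wide apart in both. KCNK15, a two-pore potassium channel gene, fell from 19.5 ± 1.06 to 7.66 ± 0.62 CPM (SD, n = 3 each). It overlaps RIMS4 on the other strand, which fell by 0.77, and since the handling of strand is not stated for these counts, reads of the pair may not have been separated. ZNF428 varied more between replicates, at 57.8, 47.7 and 42.9 CPM in F0 and at 21.6, 27.1 and 18.5 in F2, still without overlap. All 24 genes were called whichever of the 6 libraries was left out.

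**Figure D2:**
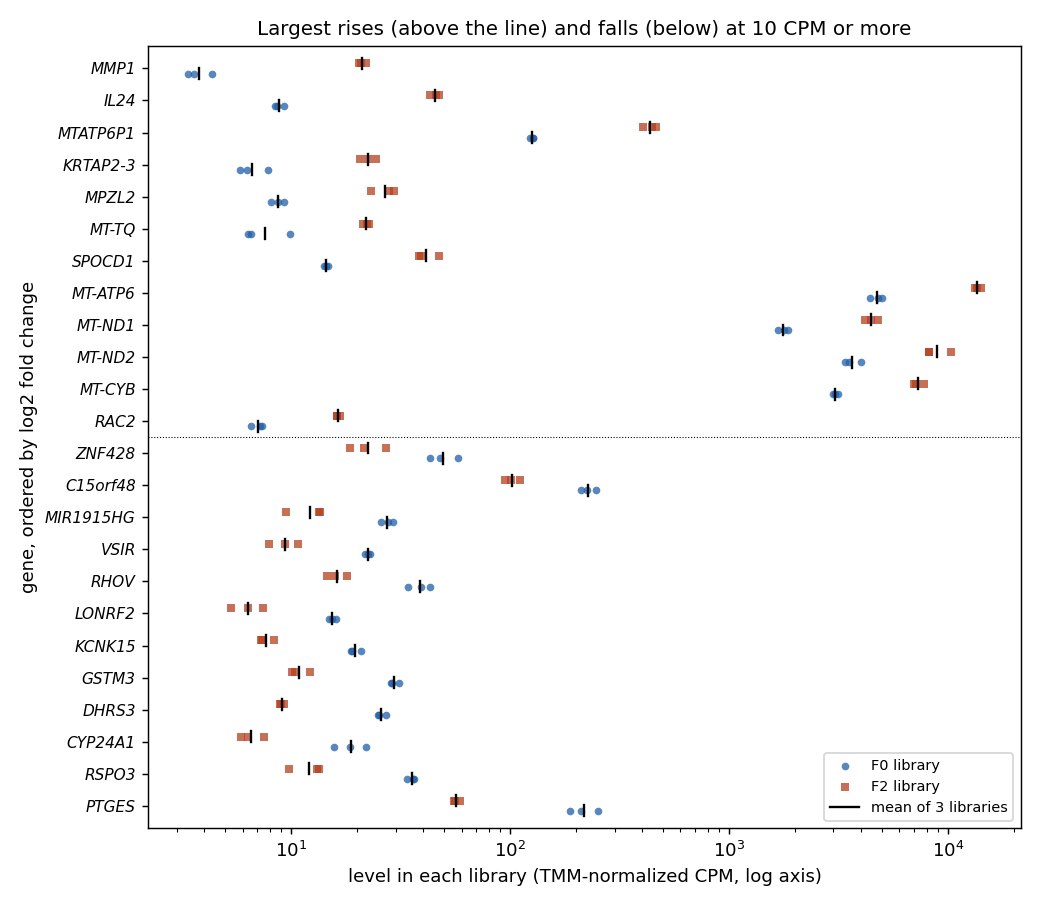
Level of the 24 genes with the largest rises and falls in each of the 6 libraries, in TMM-normalized CPM on a log axis, with blue circles for F0, red squares for F2 and a bar at the mean of 3 libraries. No F0 library of a gene reaches the range of its F2 libraries, and PTGES has the widest gap among the falls, from a mean of 217 to a mean of 56.6 CPM.

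One of these names needs its sequence to be read properly. MTATP6P1 (chromosome 1, 633696 to 634376, plus strand) is a nuclear copy of the mitochondrial gene MT-ATP6 (mitochondrial chromosome, 8527 to 9207, plus strand), which encodes a subunit of ATP synthase. It was at 125.6 ± 2.04 CPM in F0 and 437.7 ± 30.5 in F2, a change of 1.80, and MT-ATP6 was at 4741 ± 293 and 13660 ± 454 CPM, a change of 1.53. The annotated sequences are both 681 bases long and differ at 10 positions, an identity of 98.53%. The last 120 bases, from base 562, hold 1 of these differences, shown in capitals in the GENCODE release 29 transcripts.

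MT-ATP6: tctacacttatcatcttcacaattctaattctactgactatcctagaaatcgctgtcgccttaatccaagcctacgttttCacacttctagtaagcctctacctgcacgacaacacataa

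MTATP6P1: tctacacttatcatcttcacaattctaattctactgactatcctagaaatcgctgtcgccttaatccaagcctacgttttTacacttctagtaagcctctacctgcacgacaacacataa

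A read from this end is told apart by that base alone. Counts given to the pseudogene can therefore hold reads of the mitochondrial gene, and its rise may not be independent of that of MT-ATP6, which was not tested. In the annotation MT-ATP6 also overlaps MT-ATP8 and MT-CO3, 2 further genes that were called higher, by 1.16 and 1.11.

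The 25 genes at 4-fold or more were mostly of low level, and apart from MMP1 and IL24 were chosen after their values were seen. MYADML2 (chromosome 17, 81939645 to 81947233, minus strand), a protein-coding gene, had 0 counts in each F0 library and 103, 91 and 105 counts in F2, at least 35.8-fold higher against a floor of 3 counts per library. Its 3′ part overlaps PYCR1 on the same strand, a proline synthesis gene that went from 204 ± 9.63 to 178 ± 15.0 CPM. Where the MYADML2 reads lie relative to that overlap was not examined. ZNF300 (chromosome 5, 150894392 to 150904983), a zinc finger gene, showed the opposite, with 35, 32 and 32 counts in F0 and 0, 2 and 1 in F2, at least 10.2-fold lower. CACNA1G, a T-type calcium channel gene, had 20, 17 and 23 counts in F0 and 1, 2 and 3 in F2. SAA1, which encodes an acute phase protein, had 19, 11 and 24 counts in F0 and 3, 3 and 2 in F2.

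Larger counts stood behind several others. LOX (chromosome 5, 122063195 to 122078360), which crosslinks collagen, had 24, 25 and 34 counts in F0 and 128, 118 and 148 in F2, a change of 2.35 (SE 0.19, adjusted p = 2.6e-08). SAMD11 (chromosome 1, 923928 to 944581) went the other way, with 124, 106 and 117 counts in F0 and 18, 31 and 28 in F2, a change of -2.06 (SE 0.20, adjusted p = 4.4e-07). KLB, the co-receptor of FGF19 and FGF21, had 87, 61 and 67 counts in F0 and 16, 15 and 17 in F2, a change of -2.05 (SE 0.24, adjusted p = 5.2e-06). In each of these 3 genes the F0 and F2 counts were far apart. Other rises at 4-fold were those of LINC02454, LCP1, TH and ROBO4, none above 49 counts in a library. Other falls were those of EPHX3, KRT4, SULT2B1, SERP2, TP73, GLI1, LINC01730, AKR1C1, BMP7 and ADAP1, none above 43 counts. In F2, EPHX3 counts were 1, 8 and 3 and KRT4 counts were 0, 0 and 8, so the spread within F2 was wide for these. ADAP1 was called in 5 of 6 leave-one-out fits, the others named here in all 6.

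Gene families and pathways were read through 48 lists, and for each the text gives the called members in each direction beside the share over all tested genes, 9.49% higher and 8.67% lower. Where named members are not among the 4 with the largest called changes of their list, the choice was made with their values known.

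Genes for breaking down and gripping the extracellular matrix differed often. Of 31 tested matrix proteases and inhibitors 10 were higher and 6 lower (8 and 11 with library size alone). MMP14 (chromosome 14, 22836557 to 22849027) encodes a membrane-bound protease that activates other matrix metalloproteinases, and was at 53.7, 50.8 and 45.9 CPM in F0 and 104, 128 and 99.2 in F2, a change of 1.14 (SE 0.080, adjusted p = 4.4e-09). PLAUR and PLAU, the urokinase receptor and its ligand, were chosen for their pairing. PLAUR was at 157, 157 and 151 CPM in F0 and 241, 294 and 220 in F2, and PLAU at 351, 432 and 482 CPM in F0 and 562, 619 and 587 in F2, changes of 0.70 and 0.48. Receptor and ligand were thus both above F0 in every F2 library. The sheddase gene ADAM8 rose by 0.94. ST14, an epithelial serine protease, went from 4.11 ± 0.174 to 2.44 ± 0.175 CPM, a change of -0.75, and TIMP2, an inhibitor of metalloproteinases, fell by 0.20.

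Of 44 tested matrix proteins and crosslinking enzymes, 13 were higher and 8 lower (10 and 10 with library size alone). Next to LOX the largest rise was that of COL17A1, a hemidesmosome collagen, from 6.75 ± 0.318 to 13.6 ± 0.413 CPM (1.01, SE 0.11, adjusted p = 3.2e-06). COL13A1, another transmembrane collagen, rose by 0.65. Laminin chains split by gene, as LAMB3 and LAMB1 rose by 0.36 and 0.41 while LAMC1 fell by 0.28. MATN2, a matrix adaptor, fell by 0.97, with F0 libraries at 3.42, 6.24 and 6.39 CPM and F2 libraries at 3.07, 2.27 and 2.81.

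Integrins, the receptors that bind this matrix, had 9 of 13 tested members higher and 0 lower (5 and 0 with library size alone), with a median change of 0.26. ITGA2 (chromosome 5, 52989326 to 53094779), a subunit of a collagen receptor, was at 58.2, 56.8 and 57.9 CPM in F0 and 89.3, 87.3 and 88.1 in F2, a change of 0.61 (SE 0.052, adjusted p = 8.1e-08). The spread between replicates was under 1 CPM in both populations. ITGB4, which pairs with ITGA6 in the laminin receptor of hemidesmosomes, went from 8.22 ± 0.295 to 13.1 ± 0.513 CPM (0.67), and ITGA6 from 81.0 ± 6.96 to 109 ± 4.58 CPM (0.43). ITGB3, a subunit of vitronectin receptors, was at 0.768, 0.908 and 1.24 CPM in F0 and 1.85, 4.09 and 2.04 in F2, with replicate 2 well above the other F2 libraries.

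Epithelial genes moved in both directions. The list of EMT transcription factors and junctions had 5 of 39 tested members higher and 8 lower (1 and 11 with library size alone). CDH1 (chromosome 16, 68737225 to 68835548), which encodes E-cadherin, was at 11.9, 15.1 and 15.0 CPM in F0 and 5.82, 5.84 and 5.67 in F2, a change of -1.27 (SE 0.13, adjusted p = 7.6e-07). ELF3, an epithelial transcription factor, was at 13.4, 15.7 and 13.7 CPM in F0 and 5.12, 5.46 and 5.10 in F2, a change of -1.45 (SE 0.12, adjusted p = 9.6e-08). ESRP1, a splicing regulator of epithelia chosen after its value was seen, was at 1.36, 1.76 and 1.18 CPM in F0 and 0.320, 0.390 and 0.638 in F2. All 3 F2 means lay more than 2-fold below those of F0. The tight junction scaffold gene TJP1 fell by 0.40 and the placental cadherin gene CDH3 by 0.56. The keratin list also held the keratin-associated gene KRTAP2-3, which was called higher (1.76). Of its 11 tested members 4 were higher and 4 lower (2 and 5 with library size alone). KRT19 was at 270, 256 and 238 CPM in F0 and 421, 396 and 400 in F2 (0.67, SE 0.049, adjusted p = 8.9e-09), and KRT7 went from 603 ± 8.64 to 511 ± 10.9 CPM (-0.24). KRT86, a hair keratin, fell by 1.38 and belongs to a family of similar genes.

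Since prostate cancer spreads to bone, genes tied to bone were listed apart. Of 31 tested members 10 were higher and 3 lower (8 and 6 with library size alone). TNFRSF11A encodes RANK, the receptor of the osteoclast factor RANKL, and was at 7.14, 9.21 and 7.57 CPM in F0 and 17.01, 16.9 and 16.8 in F2, a change of 1.08 (SE 0.11, adjusted p = 1.2e-06). IGFBP3, which binds insulin-like growth factors, rose from 12.8 ± 1.11 to 22.6 ± 3.53 CPM (0.82). BMP7, a bone morphogenetic protein gene, fell from 1.95 ± 0.719 to 0.450 ± 0.113 CPM.

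The kinase ERK induces its own inhibitors, such as the phosphatases DUSP4 and DUSP6 and the SPRED and Sprouty proteins. Of 26 tested genes of ERK feedback and output 11 were higher and 0 lower (7 and 1 with library size alone). DUSP6 (chromosome 12, 89347232 to 89353271) was at 28.0, 26.9 and 28.4 CPM in F0 and 47.8, 49.0 and 47.5 in F2, a change of 0.79 (SE 0.066, adjusted p = 6.3e-08). DUSP4 rose by 0.77 and SPRED2 by 0.59. SPRY2 was called at 0.49 but overlapped between the populations, and 5 of 6 leave-one-out fits did not call it. Ligands of the EGF receptor, which feeds ERK, went apart. TGFA rose from 28.8 ± 0.61 to 46.6 ± 3.50 CPM (0.69) and AREG fell from 285 ± 9.92 to 211 ± 10.2 CPM (-0.43), with 5 of 14 tested members of that list higher and 3 lower (4 and 4 with library size alone).

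Early response factors are induced within minutes to hours of a stimulus. In that list 8 of 26 tested genes were higher and 5 lower (7 and 8 with library size alone). JUN, a subunit of AP-1, was at 105, 108 and 111 CPM in F0 and 189, 187 and 197 in F2, a change of 0.82 (SE 0.048, adjusted p = 3.2e-10). The orphan nuclear receptors of the NR4A family fell, all 3 of them. NR4A3 (chromosome 9, 99821855 to 99866891) was at 7.14, 7.21 and 5.98 CPM in F0 and 1.53, 1.62 and 2.36 in F2, a change of -1.88 (SE 0.20, adjusted p = 1.1e-06), while NR4A2 and NR4A1 had changes of -1.07 and -1.002.

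In the TGF-beta, Notch and Wnt lists more genes were called lower than higher. Of 31 tested genes of the TGF-beta list 3 were higher and 12 lower (2 and 16 with library size alone). ID2, an inhibitor of helix-loop-helix factors that responds to BMP signals, was at 80.0, 85.0 and 81.0 CPM in F0 and 42.3, 43.2 and 43.7 in F2, a change of -0.93 (SE 0.057, adjusted p = 7.3e-10). The ligand gene TGFB2 fell by 0.61 and SMAD6, an inhibitory SMAD, by 0.60. LTBP2, which binds to microfibrils, rose from 13.7 ± 1.29 to 26.0 ± 1.81 CPM (0.93). In the Notch list 3 of 20 tested genes were higher and 7 lower (2 and 8 with library size alone), with falls of 0.90 in NOTCH3, 0.36 in NOTCH2 and 1.28 in LFNG, a glycosyltransferase that modifies Notch receptors. The Wnt list had 2 of 31 higher and 7 lower (1 and 10 with library size alone), led by RSPO3, which strengthens Wnt signals and was at 36.5, 36.0 and 33.7 CPM in F0 and 13.4, 13.1 and 9.76 in F2. Among 27 tested targets of YAP and TEAD 8 were higher and 6 lower (7 and 10 with library size alone), with the tissue factor gene F3 at a change of 0.88.

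The receptor for interferon lambda (IL-28 and its relatives) is made of IFNLR1 and IL10RB and signals through JAK1 and TYK2 to STAT proteins. In its list 2 of 32 tested genes were higher and 7 lower (1 and 10 with library size alone). IL10RB was at 38.4, 42.3 and 41.5 CPM in F0 and 31.1, 31.7 and 31.8 in F2, a change of -0.37 (SE 0.069, adjusted p = 7.8e-04). STAT3 was at 272, 269 and 269 CPM in F0 and 233, 229 and 230 in F2 (-0.23, SE 0.042, adjusted p = 7.6e-04). These falls were small but larger than the spread between replicates. IFNLR1 (-0.043, SE 0.21), JAK1 (-0.027, SE 0.056), JAK2 (0.30, SE 0.14) and TYK2 (0.11, SE 0.058) did not pass the test. STAT6, which answers IL-4, rose by 0.39 and IFNGR2 fell by 0.34. Of 25 tested STAT3 targets 8 were higher and 5 lower (4 and 11 with library size alone), with CEBPD at -0.64 and the mucin gene MUC1 at -0.83. Of 41 tested interferon-inducible genes 3 were higher and 6 lower (2 and 7 with library size alone), and IFITM2, an antiviral membrane protein gene, fell from 24.0 ± 0.653 to 15.3 ± 0.624 CPM (-0.65).

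Genes that tumor cells show to immune cells rose in part. The list of MHC class I presentation also held CD274 and CD47, which are signals to immune cells and not presentation genes. Of its 27 tested genes 11 were higher, CD274 and CD47 among them, and 1 lower. This split became 6 and 6 with library size alone. CD274 (chromosome 9, 5450503 to 5470566), which encodes the checkpoint ligand PD-L1, was at 4.90, 7.45 and 5.33 CPM in F0 and 13.5, 13.9 and 13.4 in F2, a change of 1.21 (SE 0.14, adjusted p = 4.5e-06). CD47, the signal that holds off phagocytes, went from 60.0 ± 0.544 to 80.9 ± 2.65 CPM (0.43). HLA-C rose by 0.38 and belongs to a family of similar and variable genes, which makes its counts uncertain. In the list of chemokines, interleukins and NF-kB targets 4 of 28 tested genes were higher and 9 lower (4 and 15 with library size alone). TNFAIP3, which damps NF-kB signals, was at 11.2, 13.9 and 10.4 CPM in F0 and 20.3, 21.2 and 21.2 in F2 (0.82), CXCL1 rose by 0.73 and CCL28 by 0.82. BIRC3, also an NF-kB target, was at 157, 156 and 146 CPM in F0 and 95.1, 93.1 and 91.7 in F2 (-0.71, SE 0.049, adjusted p = 3.7e-09). The IL-6 family list had 3 of 15 higher and 3 lower (2 and 6 with library size alone). There the feedback genes SOCS3 and SOCS2 went to 0.41 and -0.57.

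Genes of cell death and survival gave mixed counts. In the BCL2 family 5 of 20 tested genes were higher and 2 lower (2 and 5 with library size alone), and among caspases, apoptosome genes and IAPs 1 of 21 was higher and 3 lower (1 and 8 with library size alone). The largest called changes of both lists were falls. BBC3, which encodes the cell death protein PUMA, was at 9.27, 9.51 and 9.47 CPM in F0 and 6.01, 4.55 and 4.97 in F2, a change of -0.86 (SE 0.14, adjusted p = 2.0e-04), and CASP9, an initiator caspase gene, went from 9.22 ± 1.09 to 5.41 ± 1.24 CPM, a change of -0.77 (SE 0.16, adjusted p = 0.0020). BCL2A1, an NF-kB-driven survival gene, rose from 11.2 ± 0.957 to 16.5 ± 1.41 CPM (0.55, SE 0.11, adjusted p = 0.0012), and BNIP3, a mitochondrial hypoxia target, from 95.3 ± 1.51 to 137.5 ± 1.80 CPM (0.53). The survival gene BCL2L1 was called at 0.24 but not without F0 replicate 2 (0.22, adjusted p = 0.11) or F2 replicate 2 (0.14, adjusted p = 0.11). The IAP gene BIRC3 (-0.71, adjusted p = 3.7e-09) and CFLAR (-0.18, called in 3 of 6 leave-one-out fits) were also called lower. PMAIP1 of the BCL2 family was called higher (0.29, called in 4 of 6 such fits). CASP4, an inflammatory caspase gene, rose by 0.48, and FAS (-0.14, SE 0.21) did not pass. Of 19 tested death and survival receptor genes 5 were higher and 1 lower (2 and 3 with library size alone), with TNFRSF25, a death-domain receptor, at 4.27 ± 0.533 CPM in F0 and 9.44 ± 0.935 in F2. LGALS1, which encodes galectin 1, was at 759 ± 9.37 and 776 ± 43.3 CPM (0.032, SE 0.045), and the difference did not pass.

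Of the 48 lists, that of antioxidant genes had the largest share of members called lower. NRF2, the product of NFE2L2, is the transcription factor that induces glutathione and NADPH enzymes against oxidants. Of 36 tested glutathione transferases and NRF2 targets 20 were lower and 1 higher (22 and 1 with library size alone), with a median change of -0.21. NQO1 (chromosome 16, 69706996 to 69726951), a quinone reductase, went from 1408 ± 16.5 to 1073 ± 3.25 CPM, a change of -0.39 (SE 0.038, adjusted p = 5.3e-07). PIR, an iron-binding NRF2 target, was at 54.2, 49.1 and 54.3 CPM in F0 and 32.6, 30.1 and 31.7 in F2 (-0.74). HMOX1, heme oxygenase, fell by 0.46 and OSGIN1 by 0.53. Chosen after their values were seen, NFE2L2 itself (-0.33), GCLC for glutathione synthesis (-0.31), and PGD (-0.39) and TKT (-0.35) of the pentose phosphate pathway also fell. Among the 20 members called lower, the fall was less than 2-fold except in GSTM3. PRDX1 and the ferritin gene FTH1, at 1606 ± 60.0 and 1967 ± 61.1 CPM in F0 and 1279 ± 25.3 and 1649 ± 199 in F2, were among the largest falls in CPM. The 1 member called higher was GSTO1, at 0.24, and 15 of the 36 were not called. Metallothioneins, which bind zinc and copper, had 3 of 8 tested genes higher and 0 lower (3 and 1 with library size alone), and MT1E went from 948 ± 19.2 to 1366 ± 86.0 CPM (0.53). They too are a family of similar genes.

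Vitamin A, vitamin D and prostaglandin genes were also called lower more often than higher. In the retinoid and vitamin D list 6 of 18 tested genes were lower and 2 higher (7 and 1 with library size alone). ALDH1A3, which makes retinoic acid, was at 93.5, 90.9 and 89.5 CPM in F0 and 53.1, 51.8 and 46.7 in F2, a change of -0.85 (SE 0.059, adjusted p = 3.7e-09). DHRS3, which turns retinal back to retinol, fell from 25.7 ± 1.08 to 9.05 ± 0.177 CPM (-1.505), and PLAAT4, a retinoid target, by 1.08. In the prostaglandin list 5 of 14 tested genes were lower and 0 higher. PTGES (chromosome 9, 129738331 to 129753047) makes prostaglandin E2 and was at 252, 210 and 188 CPM in F0 and 55.9, 58.8 and 55.2 in F2. ABCC4, a transporter that can export prostaglandins, fell by 0.36.

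Genes of hypoxia and glycolysis rose in 17 of 48 tested members and fell in 4 (14 and 9 with library size alone), with a median change of 0.17. NDRG1 (chromosome 8, 133237171 to 133302022), a gene known to be induced by low oxygen, was at 70.8, 68.9 and 70.2 CPM in F0 and 135, 134 and 129 in F2, a change of 0.92 (SE 0.050, adjusted p = 1.2e-10). HK2, which phosphorylates glucose, was at 5.61, 5.45 and 8.52 CPM in F0 and 13.9, 11.6 and 15.4 in F2 (1.06, SE 0.16, adjusted p = 7.3e-05). ENO2 rose by 0.66, whereas its paralog ENO1 differed by -0.16 and was not called without F0 replicate 2 (adjusted p = 0.10) or F2 replicate 1 (adjusted p = 0.055). Lipid genes were mixed, with 6 of 33 genes of fatty acid metabolism higher and 6 lower (4 and 12 with library size alone). PLIN2, the coat of lipid droplets, rose from 96.8 ± 1.08 to 144 ± 8.07 CPM (0.57), and ACSL4 by 0.54. In the cholesterol list 3 of 31 were higher and 8 lower (1 and 12 with library size alone).

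Of 37 tested chaperone and unfolded protein response genes 3 were higher and 4 lower (1 and 11 with library size alone), with BAG3, a co-chaperone, at 0.41 and the mitochondrial chaperone gene HSPA9 at -0.27. The ATF4 list had 2 of 38 higher and 7 lower (1 and 16 with library size alone), and PPP1R15A, which restores translation after stress, rose from 30.8 ± 0.783 to 46.8 ± 3.45 CPM (0.60). Among 38 lysosome and autophagy genes 6 were higher and 5 lower (1 and 8 with library size alone). SQSTM1, an autophagy receptor that is also an NRF2 target, was at 610, 605 and 590 CPM in F0 and 456, 430 and 462 in F2 (-0.42, SE 0.043, adjusted p = 8.1e-07). Of 31 proteasome genes 1 was higher and 6 lower (1 and 12 with library size alone), with PSMB3 at -0.32, PSMB6 at -0.30 and PSMD2 at 0.29.

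Of 49 tested DNA replication genes 10 were higher and 1 lower (4 and 4 with library size alone), and of 44 genes of mitosis 3 were higher and 10 lower (1 and 21 with library size alone). FEN1, a flap nuclease of replication, was at 222, 229 and 240 CPM in F0 and 287, 278 and 304 in F2 (0.33, SE 0.048, adjusted p = 6.0e-05), and CCNE2, a G1/S cyclin gene, rose by 0.45. CCNB1, the mitotic cyclin gene, was at 133, 142 and 146 CPM in F0 and 111, 101 and 114 in F2 (-0.37, SE 0.055, adjusted p = 8.1e-05), PTTG1 fell by 0.32 and CDC25B by 0.25. MKI67, a proliferation marker, went from 430 ± 28.7 to 519 ± 16.03 CPM (0.27), and BIRC5, which encodes survivin, differed by -0.098 (SE 0.045) and did not pass. Every one of these changes was under 1.5-fold. The CDK inhibitor genes CDKN1A and CDKN2B went to 0.35 and -0.51. In the DNA damage list 7 of 39 were higher and 5 lower (3 and 9 with library size alone), and of 27 p53 targets 4 were higher and 2 lower (3 and 4).

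Among 37 tested chromatin enzymes 6 were higher and 3 lower (3 and 8 with library size alone). TET1 (chromosome 10, 68560656 to 68694482), which oxidizes methylated cytosine, was at 3.84, 3.997 and 4.32 CPM in F0 and 1.92, 2.01 and 1.59 in F2, a change of -1.14 (SE 0.21, adjusted p = 6.0e-04). HDAC7, a class II deacetylase, was at 147, 143 and 142 CPM in F0 and 234, 210 and 235 in F2 (0.65, SE 0.050, adjusted p = 1.9e-08), while its relative HDAC4 fell by 0.46. The remodeler gene SMARCA2 rose by 0.42.

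Drug-related lists had members in both directions. Of 27 tested tubulins and efflux genes 4 were higher and 6 lower (2 and 9 with library size alone). ABCG2, a drug efflux pump, was at 2.95, 3.75 and 3.08 CPM in F0 and 1.53, 1.88 and 1.40 in F2 (-1.02, SE 0.23, adjusted p = 0.0041). TUBB2B fell by 0.79 and TUBA4A rose by 0.62. Of 15 stem-like and drug-tolerance markers 6 were higher and 3 lower. The 3 falls, of ABCG2, ALDH3A1 (-0.97, called in 3 of 6 leave-one-out fits) and ALDH1A3 (-0.85), were larger than any rise. CD24 had the largest rise, from 50.3 ± 1.22 to 79.0 ± 2.47 CPM (0.65). CD44, chosen after its value was seen, rose from 143 ± 7.77 to 222 ± 4.50 CPM (0.64). Among 8 S100 genes 4 were higher and 1 lower (3 and 1), with S100A16 going from 412 ± 28.1 to 577 ± 23.2 CPM and S100A4 from 18.4 ± 1.79 to 11.7 ± 0.686. The list of prostate lineage genes had 11 of 31 members at 0 counts and 13 tested, 2 of them higher and 1 lower (2 and 5 with library size alone), and NR3C1, the glucocorticoid receptor gene, fell by 0.34.

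The 6 largest rises in CPM, of MT-ATP6, MT-ND4, MT-RNR2, MT-CO3, MT-ND2 and MT-CYB, were all of mitochondrially encoded genes. All 13 mitochondrially encoded mRNAs were called higher, from 0.28 in MT-ND4L to 1.53 in MT-ATP6, and mitochondrial genes held 5.71, 5.87 and 6.003% of gene counts in F0 and 10.2, 10.6 and 10.4% in F2 (difference 4.57 percentage points, exact permutation test, two-sided, p = 0.1, the smallest that 3 against 3 libraries allow). Of 76 tested nuclear oxidative phosphorylation subunits 4 were higher and 13 lower (1 and 39 with library size alone), and of 34 factors of mitochondrial RNA expression 4 were higher and 2 lower (2 and 8). SDHA, a subunit of complex II, rose by 0.37 and NDUFS1, of complex I, fell by 0.28. Cytosolic ribosomal protein genes were near the share over all genes, with 10 of 84 higher and 8 lower (3 and 32 with library size alone). The exception in size was RPL22L1 (chromosome 3, 170864875 to 170870483), a paralog of RPL22, at 222, 243 and 238 CPM in F0 and 526, 507 and 555 in F2, a change of 1.18 (SE 0.048, adjusted p = 1.2e-12). When the mitochondrially encoded genes were left out, 2588 genes were called, 1350 of them higher.

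**Figure D3:**
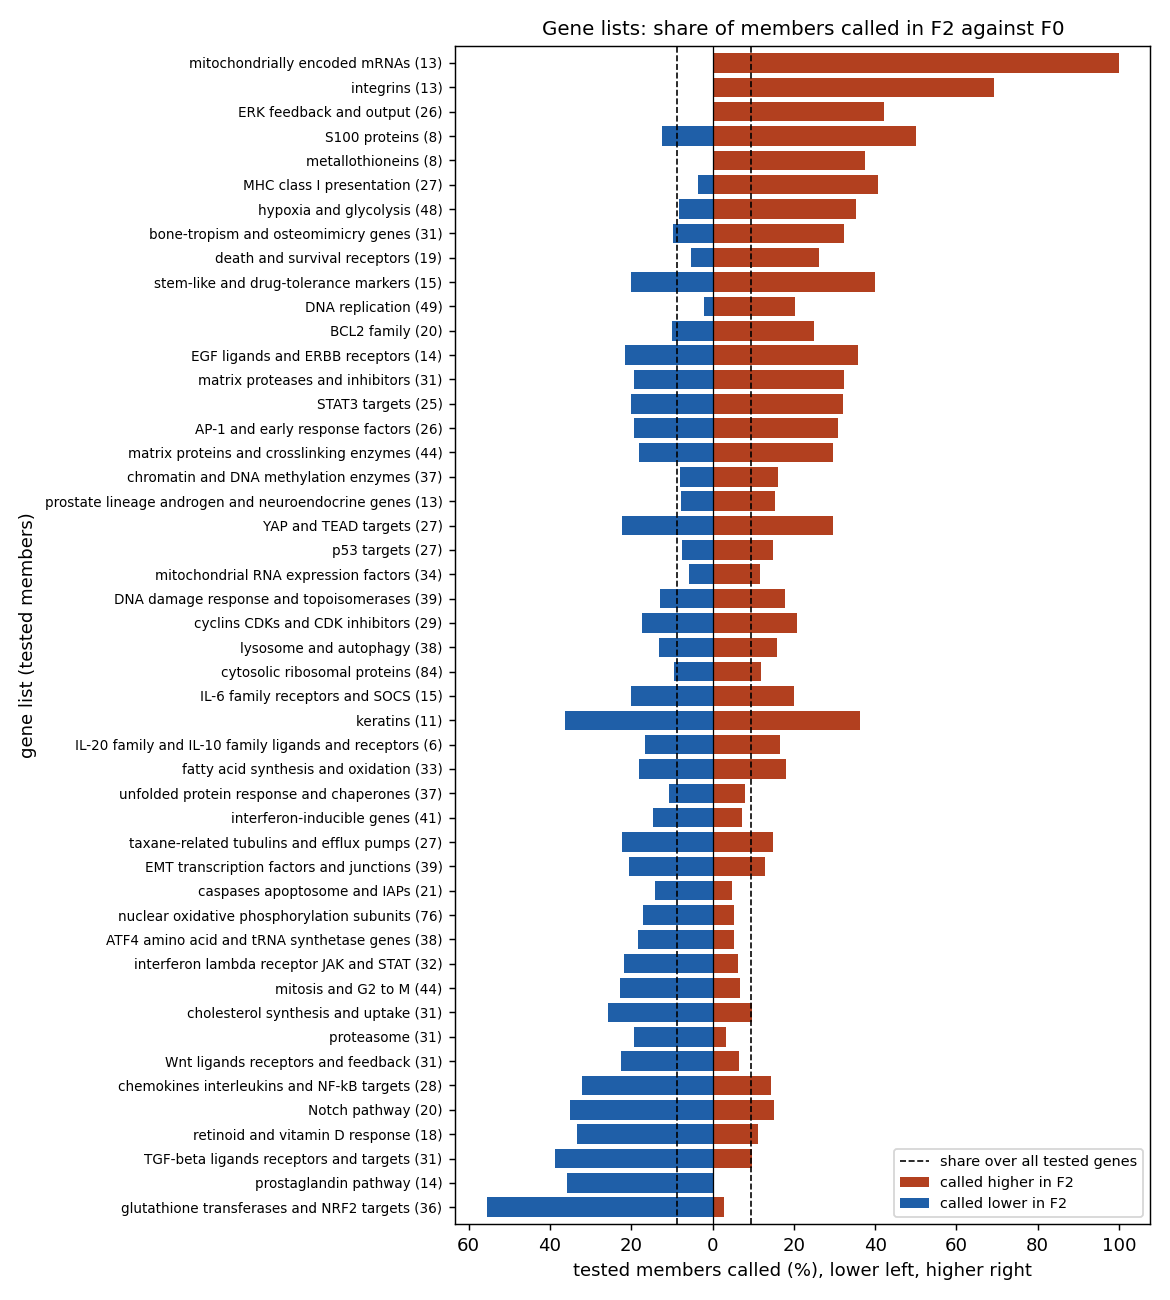
Share of the tested members of each of the 48 gene lists that were called higher (red, to the right) or lower (blue, to the left) in F2, in percent, with the number of tested members in brackets and dashed lines at the shares over all tested genes. Mitochondrially encoded mRNAs and integrins stand at the upper end, with 13 of 13 and 9 of 13 members higher, and glutathione transferases and NRF2 targets at the lower end, with 20 of 36 lower.

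By type of gene, protein-coding genes were called as often higher (1189 of 12043, 9.87%) as lower (1185, 9.84%). At 2-fold these were 73 and 107, and with library size alone 692 were called higher and 2690 lower. Of 506 tested long intergenic RNAs 42 were called higher (8.3%) and 22 lower (4.35%), and of 647 antisense RNAs 42 (6.49%) and 15 (2.32%). The shares of both types lay below those over all tested genes, 9.49% higher and 8.67% lower. With library size alone the counts became 33 and 38 for long intergenic RNAs and 34 and 36 for antisense RNAs. MALAT1 and NEAT1, nuclear RNAs chosen after their values were seen, rose by 0.72 and 0.67. The share of reads outside annotated genes was higher in F2 as well, and its part in these counts was not tested. SNHG25, a host transcript of small nucleolar RNA with SNORD104 inside it, was the largest fall in CPM among called genes without overlap, from 1168 ± 68.3 to 732 ± 46.4 (-0.67).

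By chromosome, the counts are a description with no test. Chromosomes 4, 5 and 8 had 18, 42 and 31 genes called higher and 64, 107 and 76 called lower, whereas chromosomes 3, 7 and 14 had 96, 80 and 65 higher and 47, 32 and 20 lower. With library size alone the balance of the last 3 turned, as chromosomes 3, 7 and 14 then had 60, 43 and 35 genes called higher and 130, 83 and 69 called lower, with medians of -0.055, -0.042 and -0.055. In the main scaling the medians of all tested genes were -0.072, -0.073 and -0.069 on the first 3 and 0.034, 0.047 and 0.034 on the others, less than 6% in level either way. In 140 windows of 20 Mb with at least 20 tested genes of a mean of 10 CPM or more, a view chosen after the values were seen, the highest medians were those of chromosome 11 at 120 to 140 Mb (0.15, 10 of 36 genes higher and 0 lower) and chromosome 3 at 140 to 160 Mb (0.13, 19 of 43 higher and 0 lower). The lowest were those of chromosome 4 at 60 to 80 Mb (-0.16, 3 of 30 higher and 9 lower) and chromosome 8 at 60 to 80 Mb (-0.16, 1 of 28 higher and 12 lower). On chromosome 5 at 160 to 180 Mb 21 of 61 genes were lower and 0 higher. With library size alone the window on chromosome 3 had 14 higher and 1 lower, and that on chromosome 11 had 3 and 1. DNA copy number was not measured in these files.

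**Figure D4:**
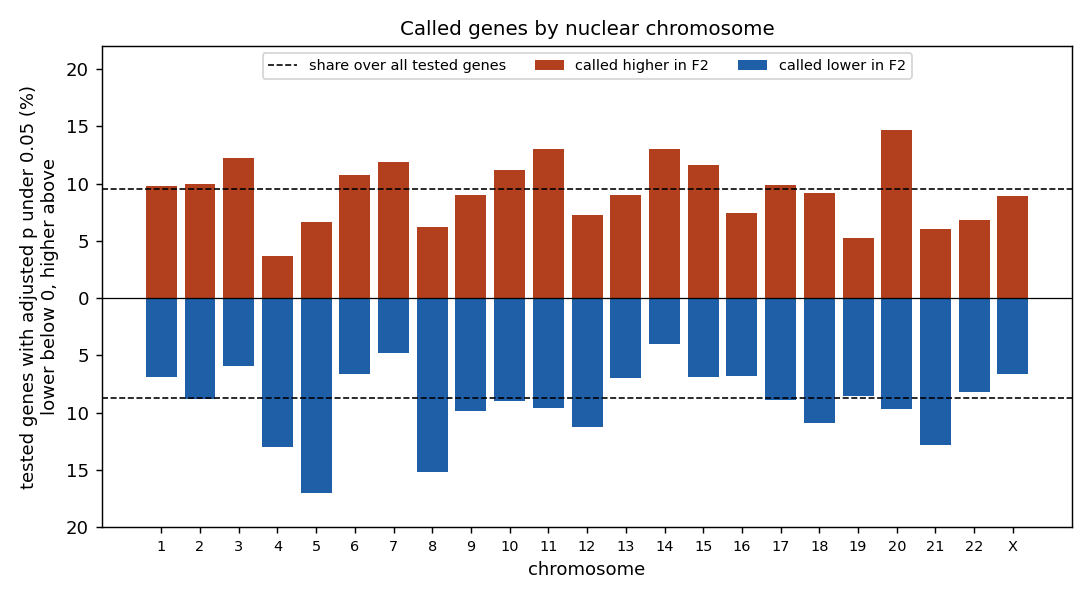
Share of the tested genes of each nuclear chromosome that were called higher (red, above 0) or lower (blue, below 0) in F2, in percent, with dashed lines at the shares over all tested genes. Chromosomes 5, 8 and 4 have the largest shares called lower, with 17, 15.2 and 13%, and chromosome 20 the largest share called higher, with 14.7%, all with TMM scaling.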

How the data were processed

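RNA of 3 F0 and 3 F2 DU145 samples was profiled by QuantSeq. Reads were aligned and counted by the authors on Bluebee, the platform that comes with the kit, and the deposited values are raw counts, whole numbers per gene without normalization. The submitters' processing notes name STAR 2.5.2a, HTSeq 0.6.0 and GRCh38, the last also for rat samples. The annotation release and the handling of strand are not given in the sources used here. Duplicates from PCR remain in the counts. The rat table of the series was not used here, as it holds another line.

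All further values were computed here from these counts with R 4.3.3 and edgeR 4.0.16. Rows that name no gene stayed out of library sizes and tests, as did 92 spike-in RNAs, which had 0 counts. Reads outside genes were on average 9.81% of uniquely placed reads in F0 and 11.6% in F2. filterByExpr (minimum count 10, minimum total 15) removed low genes, and the rest were scaled by TMM and tested between F2 and F0 with the quasi-likelihood F-test (two-sided, Benjamini-Hochberg adjusted p under 0.05). The tested genes held 99.87% of gene counts. Of 60107 identifiers, 56104 matched a symbol and 56531 a position in GENCODE release 29 on GRCh38, and positions are those of that annotation. Depth was about equal in the 6 libraries, so precision is set by the count of each gene. On data simulated for this comparison, 200 of 14144 genes were changed, all drawn from genes with higher counts. In these edgeR recovered 83.6% of genes changed by a log2 of 0.5 and 95.5% of those changed by 1, with 7.46% false calls. Recovery in genes of low count was not measured, and the changed genes were far fewer than those called in the real data.

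Named genes are the 12 largest rises and falls among called genes whose mean reached 10 CPM with no overlap between F0 and F2, the 6 largest rises and falls in CPM, up to 4 called members of each list whose mean reached 1 CPM, and genes that the study's text names. Some genes that meet these rules are not reported here. The comparison, lists and rules were chosen with earlier results of these data known. Alternatives were median-ratio size factors, library size alone, no filter beyond 1 count, 10 counts or more in each library, a replicate block, DESeq2 1.42.0 and each library left out. A fit without mitochondrially encoded genes was added later, with the data known.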

Additional observations from a re-analysis of the deposited data

Results flagged for a closer look

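Reads placed outside annotated genes are not used in the comparison of genes. They were 9.81% ± 0.213 of uniquely placed reads in F0 and 11.61% ± 0.303 in F2 (SD, n = 3 each), and all 3 F2 libraries (11.33 to 11.94%) lay above all 3 F0 libraries (9.598 to 10.02%). An exact permutation test, two-sided, gave p = 0.1, the smallest that 3 against 3 allow.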

How the results depend on the processing

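The number of called genes was 2599, and 2594 with median-ratio size factors, 3637 with library size alone, 2736 without a filter beyond 1 count, 2524 with at least 10 counts in every library, 2091 with DESeq2 and 2588 without mitochondrially encoded genes. Leaving out 1 library gave 1670 to 2621 called genes, the lowest without F0 replicate 2, and 199 to 250 of them at 2-fold. At 2-fold the 239 genes became 134 with at least 10 counts in every library, where fewer low genes were tested, and 181 to 312 under the other alternatives. Called genes were higher in F2 in 52.3% of cases, and in 22.9% with library size alone. There were 1330 genes called in each of the 6 leave-one-out fits.

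The labels give no meaning to the replicate numbers that F0 and F2 share. The deviations of same-numbered F0 and F2 libraries correlated at 0.17, -0.039 and 0.17, too few pairs to show whether samples were paired. A fit with a replicate block called 2867 genes, 229 of them at 2-fold. Of 209 named genes 200 were called, none reversed in direction under any alternative, and 165 were called in each leave-one-out fit. DESeq2 did not call 10 of them and library size alone did not call 8. Counts under about 10 per library limit what can be said of the genes with the largest fold changes.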
